A study of Rattus norvegicus with 6 samples.

Results

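The levels of 10 circadian clock genes were followed in primary rat nucleus pulposus cells (NPCs), the cells of the gelatinous core of the intervertebral disc. The members were chosen by symbol and comprise *Clock*, *Per1*, *Per2*, *Per3*, *Cry1*, *Cry2*, *Nr1d1*, *Nr1d2*, *Dbp* and *Tef*. All 10 were among the 20264 rows of the deposited count table, and all 10 were also among the 11426 genes that had enough counts to be tested. RNA was measured in 6 RNA-seq libraries of wild-type male Sprague-Dawley rat NPCs taken from tail discs and grown in DMEM/F12 with serum. Of these, 3 libraries came from cells given tert-butyl hydroperoxide (TBHP), an organic peroxide used to bring on oxidative stress and senescence, and 3 from cells given TBHP together with recombinant FGF21, a secreted metabolic hormone (TBHP+FGF21). Every library therefore received TBHP, and no untreated cells were analysed here. The treatment labels name FGF21 for replicate 1 of the TBHP+FGF21 group, FGF22 for replicate 2 and FGF23 for replicate 3, whereas the titles, the design text and the study's methods place all 3 in 1 FGF21 group, which was used. The dose and duration for these libraries, and the time of day at which cells were collected, are not given in the sources used here.

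The mammalian clock is a feedback loop of transcription that runs in most cell types, cartilage and disc cells included. CLOCK and its partner BMAL1 bind E-box sequences and switch on the *Per* and *Cry* genes, whose proteins return to the nucleus and repress CLOCK and BMAL1. E-boxes also drive *Nr1d1* and *Nr1d2*, which encode the REV-ERB repressors of *Bmal1*, and *Dbp*, which with *Tef* encodes PAR bZIP factors that act through D-box sequences on output genes and on the *Per* genes. In cultured cells, the clocks of single cells drift out of step unless a stimulus such as a medium change resets them together.

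Libraries held 18277724.5 to 22426186 counts, and a member had between 279 counts (*Cry1*) and 2185 counts (*Per1*) in a library, for which counting error alone is 5.99% and 2.14%. Values below are CPM, the read count of a gene scaled to the total of its library after TMM normalization. In these bulk libraries, fewer cells expressing a gene and less RNA per cell cannot be told apart. Replicate 2 of TBHP+FGF21 stood apart from its group: its mean Spearman correlation over genes was 0.990 with the other libraries of its group and 0.996 with the TBHP libraries. TBHP replicate 3 also sat between the groups, at 0.993 and 0.994. For most members, some other clock genes and the disc markers named below, fold changes are therefore also given without TBHP+FGF21 replicate 2. The notochordal markers *Tbxt* and *Shh* were at 0 in all 6 libraries. *Krt18*, *Foxa1* and *Foxa2* did not exceed 0.168, 0.379 and 0.469 CPM, and *Krt8* had 2.31 to 4.27 CPM. *Acan*, the aggrecan gene of disc and cartilage matrix, had between 2506 and 4355 CPM. *Col1a1*, a fibrous collagen gene, had between 27868 and 42463 CPM. *Col1a2*, the gene of the other type I collagen chain, had only 0.391 to 0.771 CPM, a gap whose cause was not tested.

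Across the group comparison, 9 of the 10 clock genes were higher in TBHP+FGF21 and 1 (*Clock*) was lower, but none passed the test. Their log2 fold changes had a median of 0.24 and ran from -0.08 to 0.60. Over all 11426 genes, 48.9% were higher and the median was -0.01. At a Benjamini-Hochberg adjusted p under 0.05 in edgeR's quasi-likelihood test, 0 of the 10 members were called against 0.00875% of all genes (1 gene, *Sirt1*). The *Sirt1* counts used differ from those deposited for each library, and with the latter 0 genes were called. At an unadjusted p under 0.05, 4 members (*Per1*, *Nr1d1*, *Per3* and *Dbp*) were higher against 4.63% of all genes, and 8.92% of all genes were past it in either direction. No member was lower at that level. The replicates are biological ones by the design text, without a statement of how many animals they came from, so the p-values measure the spread between these libraries. With 3 libraries against 3, the two-sided exact permutation test of a single gene cannot go below 0.1.

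**Figure D1:**
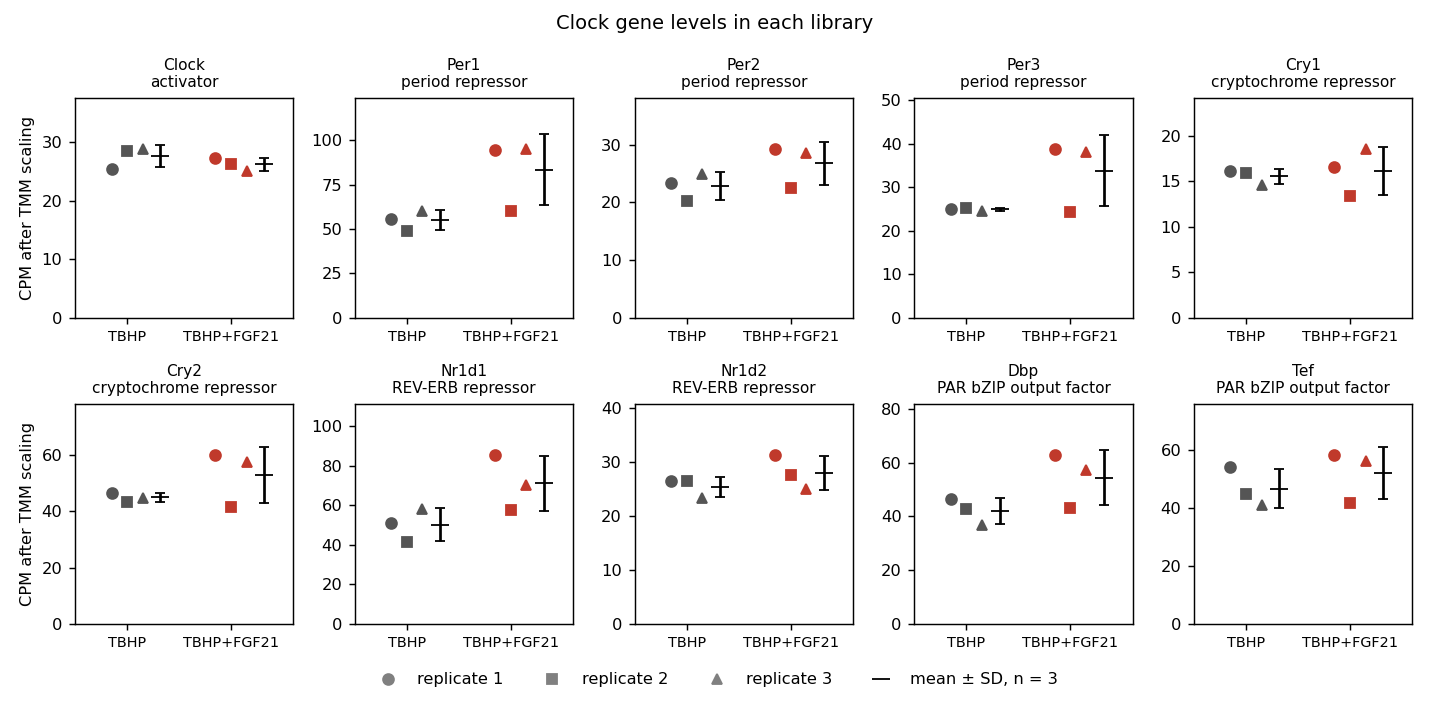
Level of each of the 10 clock genes in every library, in CPM after TMM scaling (vertical axes start at 0 and differ between panels). Gray points are TBHP, red points TBHP+FGF21, the marker shape gives the replicate number, and the bar is the mean ± SD (n = 3). Replicates 1 and 3 of TBHP+FGF21 lie above all 3 TBHP libraries for 8 of the genes, and replicate 2 does so for *Per1* and *Nr1d2*.

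*Per1* encodes a period repressor that also answers acutely to growth factor and cAMP signals in many cells. It had 55.4, 49.1 and 60.1 CPM in TBHP replicates 1, 2 and 3, and 94.4, 60.2 and 95.3 CPM in TBHP+FGF21. The groups did not overlap, but replicate 2 of TBHP+FGF21 cleared the highest TBHP library by a margin far inside the spread of either group, while replicates 1 and 3 stood well above. The log2 fold change was 0.60 (SE 0.16, n = 3 per group), with an edgeR unadjusted p of 0.00236 and an adjusted p of 0.553, and the exact permutation p was 0.1, the smallest the design allows. *Per1* was the only member whose groups did not overlap, against 4.9% of all genes that were higher without overlap.

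*Per3*, the period gene whose loss perturbs the rhythm least in mice, had 25.1, 25.2 and 24.4 CPM in TBHP and 38.9, 24.4 and 38.2 CPM in TBHP+FGF21. The TBHP libraries were nearly identical, and replicate 2 of TBHP+FGF21 was just below the lowest of them while the other two were far above. The log2 fold change was 0.44 (SE 0.16), with an edgeR unadjusted p of 0.0150 and an adjusted p of 0.553.

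*Per2*, the period repressor most often used as a reporter of the clock's phase, had 23.3, 20.3 and 24.9 CPM in TBHP and 29.3, 22.4 and 28.5 CPM in TBHP+FGF21. Replicate 2 lay within the TBHP range and the other two above it. Its log2 fold change was 0.23 (SE 0.13; edgeR adjusted p = 0.572), and 0.35 without replicate 2 (SE 0.12; edgeR adjusted p = 0.0904).

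The cryptochromes, the partners of the PER proteins in repression, differed from each other in size of change. *Cry2* had 46.7, 43.4 and 44.7 CPM in TBHP and 60.2, 41.6 and 57.5 CPM in TBHP+FGF21, so that replicate 2 was the lowest library of all and replicates 1 and 3 the highest. Its log2 fold change was 0.24 (SE 0.13; edgeR adjusted p = 0.563). *Cry1*, which is also repressed by the REV-ERB proteins, had 16.1, 15.9 and 14.6 CPM in TBHP and 16.5, 13.4 and 18.6 CPM in TBHP+FGF21. The TBHP+FGF21 libraries of *Cry1* spanned the TBHP range on both sides. The log2 fold change was 0.06 (SE 0.14; edgeR adjusted p = 0.892). It was 0.19 without TBHP+FGF21 replicate 2 and turned to -0.047 without replicate 3.

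*Nr1d1* (REV-ERBα), the main repressor of *Bmal1*, had 51.2, 41.2 and 58.2 CPM in TBHP and 85.5, 57.7 and 70.1 CPM in TBHP+FGF21. Replicate 1 was the highest, and replicate 2 was just short of the highest TBHP library. The log2 fold change was 0.50 (SE 0.15), with an edgeR unadjusted p of 0.00619 and an adjusted p of 0.553. *Nr1d2* (REV-ERBβ) had 26.4, 26.6 and 23.3 CPM in TBHP and 31.4, 27.7 and 25.0 CPM in TBHP+FGF21, with a log2 fold change of 0.14 (SE 0.12; edgeR adjusted p = 0.677). *Nr1d2* departed from most other members in that replicate 3 of TBHP+FGF21, not replicate 2, was the library inside the TBHP range.

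*Dbp*, an output factor whose transcript swings widely over the day in many tissues, had 46.5, 42.8 and 36.9 CPM in TBHP and 62.9, 43.1 and 57.3 CPM in TBHP+FGF21. Replicate 2 lay inside the TBHP range and replicates 1 and 3 above it. The log2 fold change was 0.37 (SE 0.14), with an edgeR unadjusted p of 0.0197 and an adjusted p of 0.553. *Tef*, its relative, had 54.3, 44.9 and 41.0 CPM in TBHP and 58.4, 41.9 and 56.3 CPM in TBHP+FGF21. The excess of *Tef* in replicates 1 and 3 over the highest TBHP library was small, and its log2 fold change was 0.16 (SE 0.14; edgeR adjusted p = 0.686), and 0.31 without replicate 2 (SE 0.12; edgeR adjusted p = 0.123).

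*Clock*, the activator, had 25.5, 28.5 and 28.9 CPM in TBHP and 27.3, 26.2 and 25.2 CPM in TBHP+FGF21. The groups overlapped widely, and the log2 fold change was -0.08 (SE 0.10; edgeR adjusted p = 0.805). *Clock* was the only member lower in TBHP+FGF21 and the only one whose TBHP+FGF21 libraries were less spread than the TBHP libraries.

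**Figure D2:**
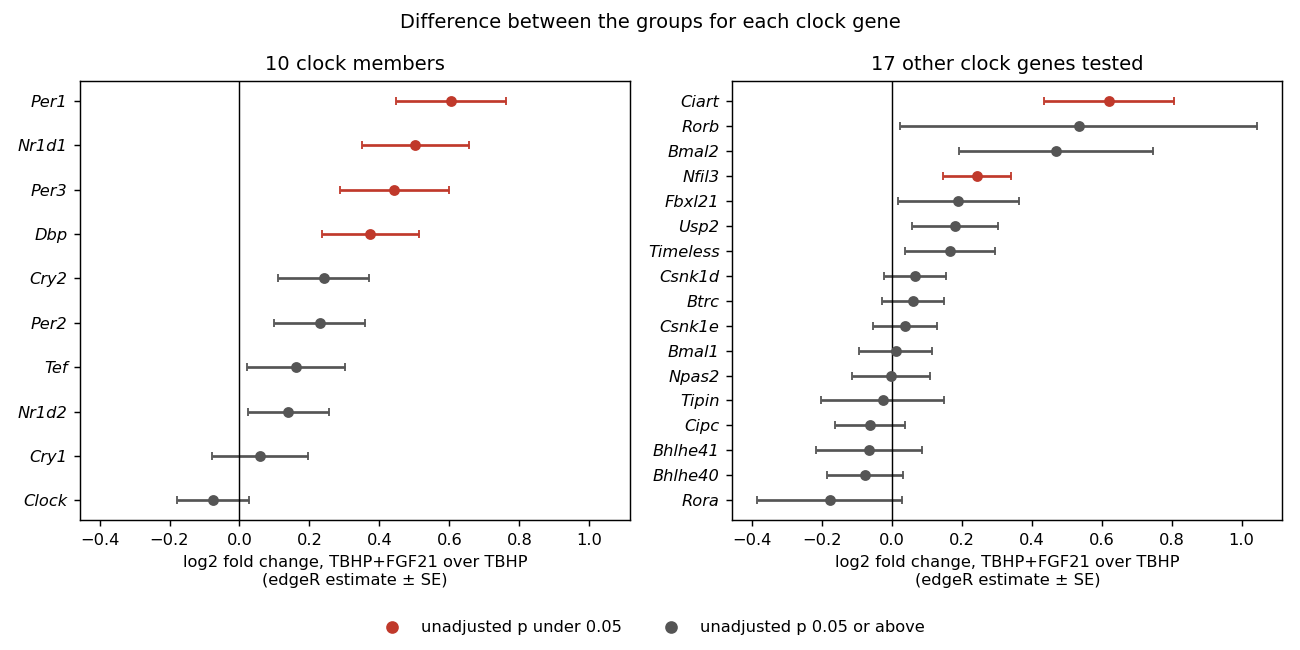
Log2 fold change of TBHP+FGF21 over TBHP (edgeR estimate ± SE, horizontal axis) for the 10 clock members on the left and 17 other clock genes on the right, with red for an unadjusted p under 0.05. *Per1*, *Nr1d1*, *Per3* and *Dbp* lead the members at 0.60, 0.50, 0.44 and 0.37, and *Ciart* and *Nfil3* are the red points among the other clock genes.

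The wider clock was read from a list of 18 further genes, of which 17 were tested and *Hlf* was not analysed here. Of the 17, 11 were higher and 6 lower in TBHP+FGF21, with a median log2 fold change of 0.06 and a range of -0.18 (*Rora*) to 0.62 (*Ciart*), and 0 passed at an adjusted p under 0.05. At an unadjusted p under 0.05, 2 of the 17 were higher (4.63% of all genes) and none lower. Without TBHP+FGF21 replicate 2, 12 were higher and 5 lower, and the median was 0.07. In that fit 2 of the 17 had an unadjusted p under 0.05, against 23.6% of all genes in either direction. At an adjusted p under 0.05 there were 0, against 3.78% of all genes that were higher. *Ciart* encodes CHRONO, another E-box driven repressor of CLOCK and BMAL1. It had 3.13, 3.31 and 2.77 CPM in TBHP and 5.35, 4.60 and 4.23 CPM in TBHP+FGF21, without overlap, for a log2 fold change of 0.62 (SE 0.19; edgeR unadjusted p = 0.00568, adjusted p = 0.553). Unlike most members, *Ciart* was well above the TBHP range in replicate 2 also. Its counts were lower than those of any member, at 56, 73 and 59 in TBHP and 113, 96 and 97 in TBHP+FGF21, so counting error is larger.

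*Nfil3* encodes E4BP4, the repressor that competes with DBP and TEF for D-boxes. It had 50.7, 46.1 and 53.7 CPM in TBHP and 63.1, 55.0 and 60.2 CPM in TBHP+FGF21, again without overlap. The log2 fold change was 0.24 (SE 0.10; edgeR unadjusted p = 0.0283, adjusted p = 0.553), and 0.31 without TBHP+FGF21 replicate 2 (SE 0.11; edgeR adjusted p = 0.0835). *Fbxl21*, *Btrc* and *Usp2*, which act on the stability of clock proteins, also did not overlap between groups, but their log2 fold changes were 0.19, 0.06 and 0.18 and none had an unadjusted p under 0.05. With *Ciart* and *Nfil3*, 5 of the 17 were thus higher without overlap, against 4.9% of all genes.

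*Bmal1*, which encodes the partner of CLOCK, and *Npas2* were nearly level between the groups. *Bmal1* had 33.3, 32.1 and 39.1 CPM in TBHP and 34.9, 35.1 and 35.3 CPM in TBHP+FGF21, a log2 fold change of 0.01 (SE 0.10; edgeR adjusted p = 0.976). The TBHP+FGF21 libraries of *Bmal1* all lay inside the TBHP range. *Npas2*, which can stand in for CLOCK, had a log2 fold change of -0.00 (SE 0.11; edgeR adjusted p = 0.996), and 0.08 without TBHP+FGF21 replicate 2. *Bmal2*, a relative of *Bmal1* at a low level, had 2.12, 1.77 and 1.41 CPM in TBHP and 1.80, 2.20 and 3.27 CPM in TBHP+FGF21. Its log2 fold change was 0.47 (SE 0.28; edgeR adjusted p = 0.581), and 0.55 without TBHP+FGF21 replicate 2.

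To set the opposing arms of the loop side by side, clock genes were grouped by their textbook mode of control and averaged in each library as log2 CPM minus the TBHP mean. The E-box and D-box arm (*Dbp*, *Tef*, *Per1*, *Per2*, *Per3*, *Nr1d1*, *Nr1d2*, *Ciart* and *Bhlhe41*) stood at 0.07, -0.06 and -0.01 in the TBHP libraries and at 0.51, 0.12 and 0.33 in TBHP+FGF21 replicates 1, 2 and 3. The arm under REV-ERB and ROR elements (*Bmal1*, *Npas2*, *Clock*, *Cry1* and *Nfil3*) stood at -0.03, -0.04 and 0.07 in TBHP and at 0.07, -0.06 and 0.12 in TBHP+FGF21. Replicates 1 and 3 of TBHP+FGF21 were above the TBHP libraries in the first arm, whereas the place of replicate 2 depended on *Ciart*, which stood at 0.59 there while *Per2*, *Per3* and *Tef* stood at -0.02, -0.03 and -0.15. Without *Ciart*, the mean of the arm was 0.06 in replicate 2 and 0.07 in TBHP replicate 1, a choice made after the values had been seen. *Cry2*, which also has E-box control but was not placed in either arm, stood at -0.11 in replicate 2, and with it the mean of the arm there was 0.10. In the second arm replicates 1 and 3 were also above the TBHP libraries, replicate 1 only just (0.072 against 0.066 in TBHP replicate 3). The place of replicate 1 leaned on *Nfil3*, at 0.33 there, while *Bmal1*, *Npas2*, *Clock* and *Cry1* stood at 0.01, -0.06, -0.01 and 0.09. With replicate 2 at -0.06, the second arm overlapped between groups, and it was not lower in TBHP+FGF21. Not every gene of the first arm followed its mean, as *Bhlhe41* had a log2 fold change of -0.06 (-0.19 without TBHP+FGF21 replicate 2). Its relative *Bhlhe40*, which was not placed in either arm, had a log2 fold change of -0.08. *Bhlhe40* stood at -0.05, 0.10 and -0.30 in TBHP+FGF21 replicates 1, 2 and 3.

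**Figure D3:**
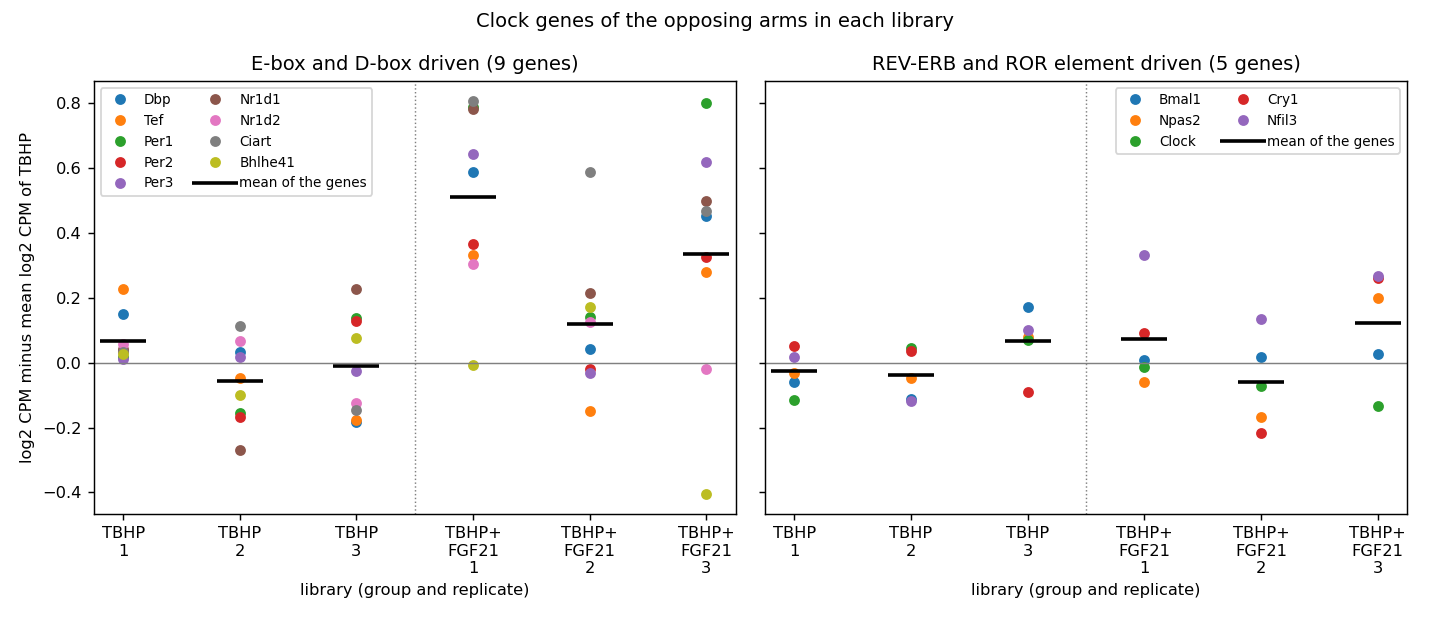
Log2 CPM of each clock gene relative to its TBHP mean (vertical axis) in the 6 libraries (horizontal axis), for 9 E-box and D-box driven genes on the left and 5 genes under REV-ERB and ROR elements on the right, with a black bar for the mean. In TBHP+FGF21 the left-hand means are 0.51, 0.12 and 0.33, and the right-hand means are 0.07, -0.06 and 0.12.

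The members varied more within TBHP+FGF21 than within TBHP. The SD of log2 CPM was larger in TBHP+FGF21 for 9 of 10 members, against 55.2% of all genes, and for *Per3* it was 0.02 in TBHP and 0.38 in TBHP+FGF21. Replicate 1 of TBHP+FGF21 was above every TBHP library for 9 members (31.2% of all genes) and replicate 3 for 8 (31.7%). Both were above for 8 members (20.4%), a grouping chosen after the values had been seen. Replicate 2 was above every TBHP library for 2 members, *Per1* and *Nr1d2* (17.2% of all genes), within the TBHP range for 5 and below it for 3 (*Per3*, *Cry1* and *Cry2*). The median member was 0.39, -0.03 and 0.34 above its TBHP mean on the log2 scale in replicates 1, 2 and 3.

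TBHP+FGF21 replicate 2 was the library of its group most like TBHP and was singled out after the values had been seen. Leaving it out thus tends to widen the gap between the groups. Over all genes, 867 passed at an edgeR adjusted p under 0.05 in that fit, in place of 1 with all 6 libraries. Without it, 5 members passed at that level and all 5 were higher, against 3.78% of 11559 genes that were higher. *Per1* then had a log2 fold change of 0.80 (edgeR adjusted p = 0.000230), *Per3* and *Nr1d1* of 0.64 each (edgeR adjusted p = 0.00196 and 0.00620), *Dbp* of 0.52 (edgeR adjusted p = 0.0103) and *Cry2* of 0.40 (edgeR adjusted p = 0.0251). The median over the 10 members was 0.37. Without any other library, 0 members passed. With replicate 1, the library whose treatment label names FGF21, set alone against TBHP, *Per1*, *Nr1d1*, *Per3* and *Dbp* passed, against 1.19% of 11752 genes that were higher. In that fit the single library was assumed to vary like the TBHP libraries. *Per1* had a log2 fold change of 0.79 and *Nr1d1* of 0.77 there, while *Clock* had -0.01. The number of members at an unadjusted p under 0.05 was 7 without TBHP+FGF21 replicate 2, where 23.6% of all genes were past it in either direction, and 2 without TBHP+FGF21 replicate 1, where 4.15% were.

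**Figure D4:**
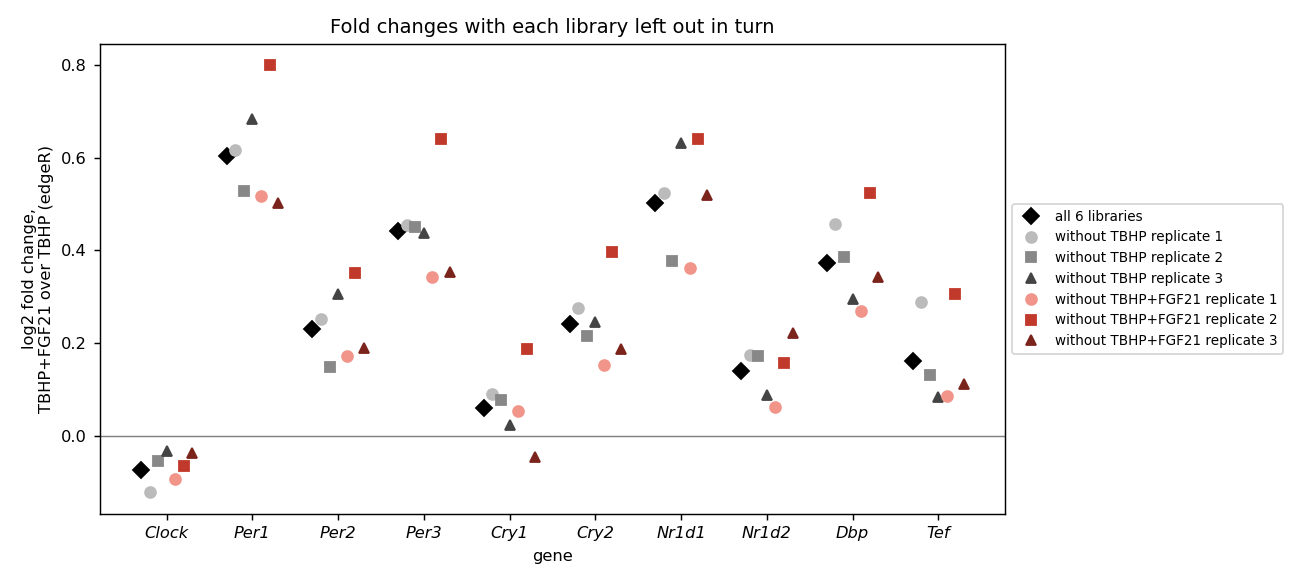
Log2 fold change of each clock gene (vertical axis, edgeR) with all 6 libraries (black diamonds) and with each library left out in turn (gray for TBHP, red shades for TBHP+FGF21). Leaving out TBHP+FGF21 replicate 2 takes *Per1* from 0.60 to 0.80 and *Per3* from 0.44 to 0.64, and *Cry1* is the only gene whose sign turns.

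Markers of the disc also differed between these libraries, in both directions. Of 6 tested genes of the nucleus pulposus and notochord list, *Acan*, *Sox9* and *Pax1* were higher at an unadjusted edgeR p under 0.05 (4.63% of all genes were higher), with log2 fold changes of 0.40, 0.56 and 0.54 (0.54, 0.75 and 0.75 without TBHP+FGF21 replicate 2). The other 3, *Krt8*, *Cd24* and *Col2a1*, were lower without passing that level, at -0.43, -0.55 and -0.26 (-0.48, -0.26 and -0.37 without replicate 2). These 3 were at low levels, with at most 4.27, 2.13 and 0.782 CPM in a library. The summed list, nearly all of it *Acan*, had 2729 to 3173 CPM in TBHP and 3099 to 4757 CPM in TBHP+FGF21, with replicate 2 at 3099. The annulus fibrosus and fibroblast list had 2 of 6 tested genes past that level, *Scx* lower at -0.39 and *Pdgfra* higher at 0.39 (-0.60 and 0.58 without replicate 2). The other tested genes of this list did not pass it. Among them *Col1a1* was at -0.19, and *Col1a2*, *Mkx* and *Thy1* were at 0.08, 0.22 and 0.06. Its sum was 39565 to 43807 CPM in TBHP and 29326 to 41459 CPM in TBHP+FGF21, with replicate 2 at 41459. The leukocyte list summed to 1.59 to 2.51 CPM and 1.66 to 2.31 CPM, with *Ptprc* and *Adgre1* at 0, and the endothelial list to 0.281 to 0.503 CPM and 0.0474 to 0.527 CPM, with *Cdh5* and *Kdr* at 0. The part of the disc markers in the clock gene differences was not tested.

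Genes whose levels ran most like a member over the 6 libraries were named by Pearson's r of log2 CPM, as a description in which all points share the same libraries and the gap between replicate 2 and its group. For *Per1* these were *Gprasp2* (r = 0.997), *Cln6*, *Bcam*, *Cnp* and *Pc* (r = 0.994). *Pc*, which encodes pyruvate carboxylase, had 68.4, 65.9 and 69.8 CPM in TBHP and 86.1, 69.5 and 84.8 CPM in TBHP+FGF21. For *Dbp* they were *B4galt4* (r = 0.990), *Ptpro*, *Supt3h*, *Zfp444* and *Stx5* (r = 0.983), none of them a clock gene. Because they were chosen by r, these genes repeat the pattern of most members. Replicate 2 of TBHP+FGF21 lay within or close to the TBHP range for them, and replicates 1 and 3 above it.

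The sequences through which the loop is wired were looked for in RefSeq promoter windows of the GRCr8 build, from 250 bases before to 50 bases after an annotated start. Windows were found for 9 members (11 windows, with *Clock* and *Nr1d1* having a pair each), and none for *Cry1*. Motifs were searched on both strands. The E-box CACGTG lay in windows of *Nr1d1* and *Tef* and in 6.42% of all 33469 windows. The related E'-box CACGTT lay in windows of *Per2*, *Cry2* and *Nr1d1* (4.83% of all windows), and the D-box TTANGTAA in that of *Per2* (2.24%). The ROR element TAGGTCA (2.63%) and the cAMP response element TGACGTCA (1.83%) were in no member's window, and its core TGACG, which is part of the full element, was in those of *Nr1d2*, *Per2* and *Per3* (21.2%). No motif was found in the windows of *Per1*, *Dbp* and *Clock*, but the *Per1* window lies inside the annotated gene, 5374 bases from its edge. These letters are thus only absent from the stretch searched. The start of the *Nr1d1* window with the E-box was 2358 bases from the edge of the gene, and that of *Clock* window 2 37798 bases. For *Tef*, *Per3* and *Per2* this distance was 9647, 443 and 76 bases.

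Shown here are the upstream 250 bases of *Nr1d1*, at chr10:84231813-84232062 on the minus strand, and of *Cry2*, at chr3:98860438-98860687 on the minus strand, since they lie outside the annotated gene and hold an E'-box. The 30 bases around 3 further motifs follow, for *Per2* at chr9:99497038-99497067 (E'-box) and chr9:99497167-99497196 (D-box), both on the minus strand, and for *Tef* at chr7:115206617-115206646 (E-box) on the plus strand, inside the annotated gene. Each is written 5′ to 3′ on the strand of its gene with the motif in capitals, where AACGTG is the E'-box on the opposite strand. A match is a description of the letters and not evidence of binding in these cells.
Nr1d1: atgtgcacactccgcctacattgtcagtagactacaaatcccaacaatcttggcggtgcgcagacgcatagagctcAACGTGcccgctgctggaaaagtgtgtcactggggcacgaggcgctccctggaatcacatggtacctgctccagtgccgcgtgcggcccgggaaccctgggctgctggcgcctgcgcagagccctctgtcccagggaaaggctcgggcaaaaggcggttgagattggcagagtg
Cry2: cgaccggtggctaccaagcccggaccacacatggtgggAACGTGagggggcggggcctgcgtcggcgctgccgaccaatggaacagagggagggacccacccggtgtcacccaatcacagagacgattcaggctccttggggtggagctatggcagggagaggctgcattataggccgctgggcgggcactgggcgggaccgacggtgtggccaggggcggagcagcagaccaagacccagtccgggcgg
Per2 E'-box: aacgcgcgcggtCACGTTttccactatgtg
Per2 D-box: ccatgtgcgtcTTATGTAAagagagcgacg
Tef E-box: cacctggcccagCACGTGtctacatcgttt

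In the *Nr1d1* window the E'-box began 174 bases before the start, and in that of *Cry2* 212 bases before it. In *Per2* the E'-box began 62 bases and the D-box 192 bases before the start, and in *Tef* the E-box 198 bases before it. Members with an E-box or E'-box did not share 1 size of difference, as *Nr1d1* had a log2 fold change of 0.50 and *Tef* of 0.16, and *Per1*, without a match in its window, had 0.60.

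Some members overlap other annotated genes, and the unstranded counts used here do not separate strands. For *Nr1d1*, the sum of the strand columns was 1.34 to 1.63 times the unstranded count, so that reads counted by strand are missing from the unstranded value. For the other 9 members that ratio was 1 to 1.01. *Thra*, the thyroid hormone receptor gene on the opposite strand at the end of *Nr1d1*, had 65.0, 55.0 and 61.4 CPM in TBHP and 78.6, 62.7 and 78.6 CPM in TBHP+FGF21 (log2 fold change 0.28, SE 0.11; edgeR adjusted p = 0.553). Without TBHP+FGF21 replicate 2, *Thra* had a log2 fold change of 0.39 (SE 0.10; edgeR adjusted p = 0.0292). In the RefSeq annotation, *Clock*, *Per2* and *Cry2* overlap long noncoding RNAs and *Cry1* a protein-coding locus. *Per1*, *Per3*, *Nr1d2*, *Dbp* and *Tef* overlap no other gene there. The annotation used for counting is not given and may differ, as the strand ratio of *Dbp* was 1.002 to 1.011. By strand, 42.3% to 53.4% of the reads of a member were counted in 1 of the 2 strand columns in any library. With 1 of the strand columns in place of the unstranded counts, *Nr1d1* had a log2 fold change of 0.37 in place of 0.50, and the median of the members was 0.28.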

How the data were processed

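Count tables of the 6 libraries (3 TBHP, 3 TBHP+FGF21) were used. The authors deposited raw read counts for each library, unstranded and by strand, and a combined table by gene symbol. In the latter, as deposited, 22 rows are not whole, so its deposited values were classed among expected counts, and these rows were rounded up. STAR and featureCounts are named in the submitters' processing notes, and their versions, the genome build and the annotation are not given in the sources used here. The library kit was directional, but the strand columns were nearly equal (ratio 0.977 to 0.986), so unstranded counts were used. Unmapped, multimapping and ambiguous reads and those assigned to no feature (18.5% to 20.9% together) stayed out of library sizes.

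Genes were compared with edgeR 4.0.16 in R 4.3.3 (TMM, filterByExpr with a minimum count of 10 and total of 15, glmQLFit, glmQLFTest), with Benjamini-Hochberg adjustment over 11426 genes. The *Sirt1* row of the combined table differs from the per-sample counts, and with the per-sample counts no gene was called. Members were found in the per-sample files by identical counts. Alternatives were DESeq2 1.42.0, limma 3.58.1 (voom, and log2(CPM + 1)), other filters, per-sample and stranded counts, a replicate block and leaving out each library. All members, the other clock genes, the arms, the markers and the motifs were named by a fixed list, and the likeness genes are the 5 with the highest r. Some genes of the clock list are not reported here. The members and lists were chosen with earlier results of these data known. Promoter sequences are from RefSeq (GRCr8).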

Additional observations from a re-analysis of the deposited data

How the results depend on the processing

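Over 90 values of the 10 members under alternatives with all 6 libraries, the direction and the side of the threshold were as reported in all, and the lowest adjusted p was 0.103. The median log2 fold change of the members was 0.16 to 0.37 with 1 library left out and 0.40 with the library labelled FGF21 alone. *Cry1* ran from -0.047 to 0.19 with 1 library left out and was reversed, at -0.047, without TBHP+FGF21 replicate 3. Members at an unadjusted p under 0.05 numbered 4 of 10, 2 to 7 with 1 library left out, and 7 with the library labelled FGF21 alone.

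Genes at an adjusted p under 0.05 numbered 1 in edgeR, 4 in DESeq2's Wald test, 0 in limma-voom, 5 without a filter on low counts, 0 with the per-sample unstranded counts, 0 with strand column 4, 0 to 867 with 1 library left out (867 without TBHP+FGF21 replicate 2) and 325 with the library labelled FGF21 alone. At an unadjusted p under 0.05 they numbered 1019, 996 in limma-voom, 1082 and 1049 with the per-sample unstranded and strand column 4 counts, 510, 337 and 1771 without TBHP replicates 1, 2 and 3, 479, 2732 and 341 without TBHP+FGF21 replicates 1, 2 and 3, and 1669 with the library labelled FGF21 alone. With the replicate block, 2 genes passed the adjusted and 1599 the unadjusted threshold, and 4 members the latter. Libraries of the same number correlated at -0.12, 0.21 and 0.15 in their deviations from the group means. TBHP replicates 1 and 3 correlated best with TBHP+FGF21 replicates 2 and 1 (0.09 and 0.18). The numbers were therefore not taken to pair the samples. The cause of these differences was not tested.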
